A study of Mus musculus with 26 samples.

Results

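The nuclear-encoded genes of the mitochondrial respiratory chain and ATP synthase were followed across 24 libraries from germinal vesicle (GV) oocytes of the mouse, which are fully grown and held before meiosis resumes. The set was defined by symbol: every gene whose symbol starts with Ndufa, Ndufb, Ndufc, Ndufs, Ndufv, Sdh, Uqcr, Cox4, Cox5, Cox6, Cox7, Cox8 or Atp5. Of 97 such genes, Cox8b and Ndufs5 had a count of 0 in every library and were left out, which left 95 of 24450 features. Assigned by symbol alone, complex I accounted for 45 of them, complex II for 8, complex III for 8, complex IV for 17 and complex V for 17. By role, 81 encode subunits or their isoforms and 14 encode assembly factors or the accessory genes Atp5s and Atp5sl.

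The respiratory chain passes electrons from NADH and succinate to oxygen and pumps protons across the inner mitochondrial membrane, and the ATP synthase uses that gradient to make ATP. Complex I oxidizes NADH, complex II oxidizes succinate, complex III passes electrons from ubiquinol to cytochrome c, complex IV reduces oxygen, and complex V is the ATP synthase. A small core of subunits is encoded in mitochondrial DNA, of which the table held 0 genes, and the others are made from nuclear genes. The oocyte depends on oxidative phosphorylation of pyruvate supplied by the follicle, and its mitochondria are the founders of those of the offspring.

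The libraries came from pools of 10 oocytes and were made from cDNA. They fell into 7 labelled groups, of which every group but WT carried Zp3-Cre, a recombinase driven by the promoter of a zona pellucida gene and active in growing oocytes. In LCD KO (7 libraries) the low-complexity domain (LCD) of Tet3, a dioxygenase that oxidizes methylated cytosine, was floxed. HD mutant (5 libraries) carried an allele labelled Tet3 LCD HD Mut f/f, where HD is not defined in the sources used here. Dnmt3a KO (2 libraries) carried floxed Dnmt3a, which sets new cytosine methylation in growing oocytes, and DKO (2 libraries) carried floxed Dnmt3a and the floxed LCD of Tet3. Further pairs of libraries were labelled Tet3 KO and, as lacking Tet1, Tet2 and Tet3, TKO. WT (6 libraries) carried the floxed LCD of Tet3 without Cre. Every comparison with WT therefore also holds the presence of Cre, which cannot be told apart from the change that names the group. The labels place LCD KO 1 to 3 and WT 1 to 3 in batch 1, LCD KO 4 and 5, HD mutant 1 to 3 and WT 4 in batch 2, and LCD KO 6 and 7, Dnmt3a KO, DKO, the libraries labelled Tet3 KO and WT 5 and 6 in batch 3. They state no batch for HD mutant 4 and 5 or for TKO.

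Some libraries went against their labels. The 2 TKO columns were identical to the 2 columns labelled Tet3 KO and were counted once. Tet3 stood at 262 and 357 CPM (counts scaled to library size, here with TMM factors) in the libraries labelled Tet3 KO, against 157 to 427 CPM in WT, whereas Dnmt3a stood at 105 and 143 CPM there, against 237 to 620 CPM in WT. These libraries are therefore called labelled Tet3 KO, and no direction below rests on that genotype. Tet3 reached 43.9 to 200 CPM in LCD KO, 52.0 to 198 CPM in HD mutant and 57.1 to 65.7 CPM in DKO, and within batch 2 it stood at 164 and 200 CPM in LCD KO, against 427 CPM in WT. Counts per gene cannot separate a lower transcript level from reads missing over the deleted part.

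Total counts lay between 1838824 and 7833087 per library, and 93 to 95 of the 95 genes were detected in each. Batches differed in composition. The 20 most abundant genes took 15.3% to 16.6% of the counts in batch 1, 9.81% to 13.8% in batch 2 and 8.66% to 12% in batch 3, and the scaling factors (TMM, which correct library totals for differences in composition) were 0.733 to 0.759 in batch 1 and 1.03 to 1.20 in the other stated batches. All 14 oocyte markers were detected in all 24 libraries. The summed level of granulosa and cumulus cell markers was 353 CPM in LCD KO 2, most of it Inha at 292 CPM, and 60.3 to 121 CPM in the others. Of the 14 granulosa and cumulus markers, Ptx3 was the only one at 0 in all 24 libraries, and 4 had counts in every library (Cyp19a1, Nr5a2, Kitl and Hsd3b1, with medians of 30.1, 24, 7 and 3.43 CPM). The markers of theca or stroma summed to at most 7.26 CPM and those of blood or immune cells to at most 3.02 CPM. In bulk RNA, fewer cells of a type and less RNA per cell cannot be told apart.

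Within WT oocytes the 95 genes covered a wide range of levels. Levels between genes are compared as CPM per kilobase of exon, with the union of a gene's annotated exons as its length. That union can be longer than the transcripts present, and it was 6883 bases for Ndufab1 and 4912 bases for Atp5g1. Comparisons between genes per kb carry that limit. The median over the 95 genes was 66.4 CPM per kb, with the middle of the distribution between 30.6 and 168 CPM per kb. The median was 81.4 CPM per kb over the subunits and isoforms and 19.0 CPM per kb over the assembly factors and accessory genes. By complex it was 66.1 for complex I, 33.0 for complex II, 151 for complex III, 141 for complex IV and 64.0 for complex V.

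Complex I held the gene with the highest level of all. Ndufb11, an X-linked subunit of the membrane arm, averaged 711 ± 219 CPM per kb in WT (SD, n = 6), followed within the complex by Ndufa2 at 633 ± 109. In CPM, which is not divided by length, the highest were Ndufb11 at 646 ± 198 and the assembly factor Ndufaf4 at 620 ± 178. Ndufab1, the mitochondrial acyl carrier protein that is also a subunit of complex I, followed at 477 ± 114. The ranges of these genes over the 6 WT libraries overlapped. The lowest were Ndufaf1, an assembly factor of the membrane arm, at 1.37 ± 0.696 CPM and Ndufa4l2, a paralog of Ndufa4, at 4.99 ± 2.98 CPM.

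In complex II, Sdhd, a membrane anchor of succinate dehydrogenase, averaged 349 ± 154 CPM in WT, the other anchor Sdhc 207 ± 38.2 CPM and the assembly factor Sdhaf4 159 ± 57.1 CPM. The assembly factors Sdhaf1 (21.7 ± 4.52 CPM) and Sdhaf3 (20.9 ± 6.35 CPM) were the lowest of complex II. In complex III the small subunits Uqcrq at 392 ± 111 CPM, Uqcrh at 284 ± 51 CPM and Uqcr10 at 255 ± 57.9 CPM led, and Uqcrb (72.7 ± 21.8 CPM) and the core protein Uqcrc1 (43.3 ± 9 CPM) were lowest.

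Complex IV has paired isoforms, and in each pair the form known as the widely expressed one was higher in WT oocytes. Cox4i1 reached 501 CPM per kb and Cox4i2 1.79. Cox6a1 reached 418 CPM per kb and Cox6a2, the heart and skeletal muscle form, 28.8. Cox6b1 stood at 189 CPM per kb and Cox6b2, the testis form, at 48.9, so that this pair was the least unequal. Cox7a2 stood at 352 CPM per kb, Cox7a2l, a factor that joins complexes III and IV, at 141, and Cox7a1, the muscle form, at 1.35. Cox7b reached 173 CPM per kb, and its relative Cox7b2 had counts in WT 4 alone of the 24 libraries. Cox8a reached 168 CPM per kb and Cox8c, known from testis, 2.72. Cox6c, which has a single form, stood at 99.8 CPM per kb, and in CPM the highest of complex IV were Cox4i1 (776 ± 330), Cox5a (507 ± 187) and Cox6c (356 ± 90.5). Ndufa4, named as a complex I gene but known as a subunit of complex IV, reached 232 CPM per kb and Ndufa4l2 4.56.

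**Figure D1:**
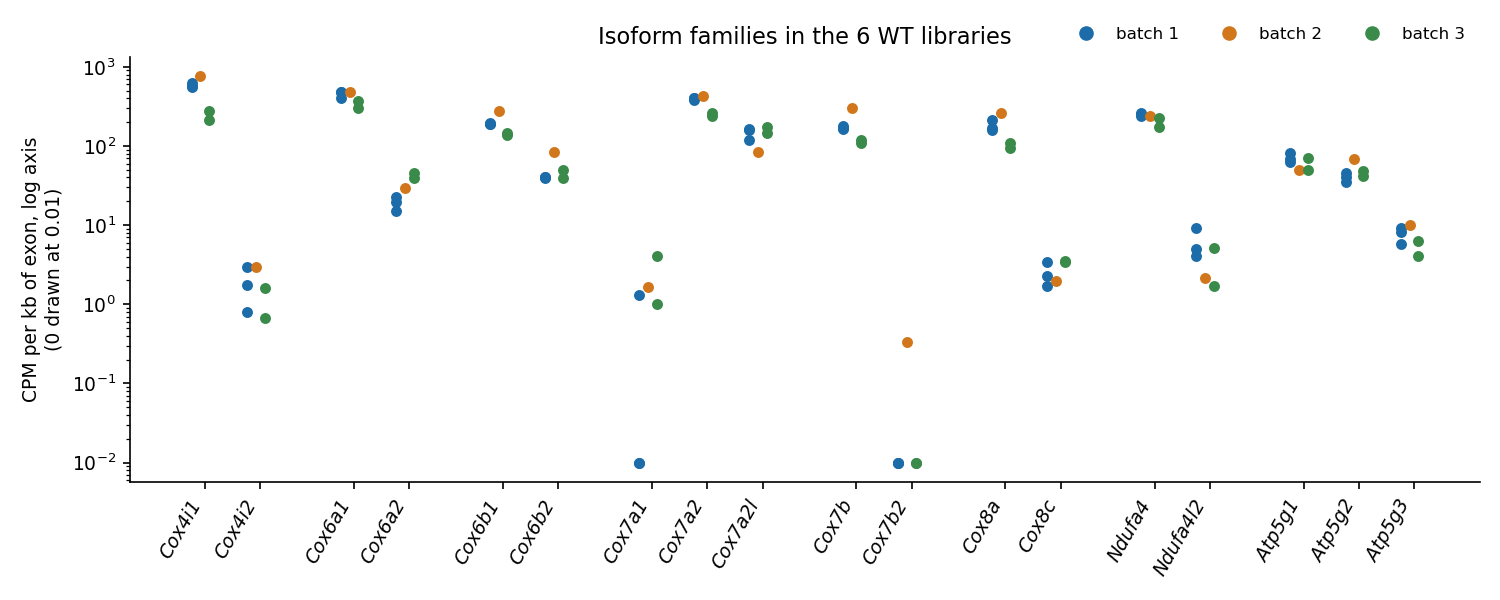
Levels of isoforms of complex IV and V genes in the 6 WT libraries, in CPM per kb of exon on a log axis, 1 point per library, with a value of 0 drawn at 0.01. Cox4i1 at a mean of 501 and Cox4i2 at 1.79 stand far apart, whereas Cox6b1 (189) and Cox6b2 (48.9) lie closer, and Atp5g3 (7.21) lies below Atp5g1 (64.0) and Atp5g2 (46.8).

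In complex V the highest levels in WT were those of Atp5e (967 ± 363 CPM), the epsilon subunit of the catalytic head, Atp5h (568 ± 139 CPM), of the peripheral stalk, and Atp5j2 (461 ± 108 CPM), of the membrane part. The proton-carrying ring is built from identical c subunits made by 3 genes. Atp5g1 stood at 64.0 ± 12.3 CPM per kb, Atp5g2 at 46.8 ± 11.5 and Atp5g3 at 7.21 ± 2.24. In CPM, Atp5g1 stood at 314 ± 60.6 and Atp5g2 at 78.3 ± 19.3, so that their distance depended on the length used. Atp5g3 was also among the lowest of the complex in CPM (15.7 ± 4.9), with the accessory gene Atp5s (9.9 CPM). The plot of isoform levels shows these families library by library. Several of the 95 genes have processed copies in the genome, and how reads matching several places were counted is not stated in the sources used, so that levels of single genes carry that uncertainty. Exons of 14 of the 95 genes overlap those of another gene over more than 10% of their length, among them Cox5a (12.8%) and Sdhaf4 (12.7%).

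Promoter sequence was available from RefSeq (GRCm38.p6, 250 bases before to 50 after the annotated start) for 76 of the 95 genes and was searched on both strands. The relaxed NRF1 motif, which is GCGC, any pair of bases and GCGC again, was in a promoter of 22 genes (28.9%). The share was 7.0% over all 27025 genes with promoter sequence, which are more than the 24450 features and were not matched for base composition. The strict form with AT between the blocks, which is contained in the relaxed one, was in 7 (9.21%, against 1.07%). The ETS motif CCGGAAG, bound by GABPA, was in 21 (27.6%, against 9.93%), AAGATGGCG of YY1 in 8 (10.5%, against 1.64%) and TGACGTCA, the cyclic AMP response element, in 4 (5.26%, against 2.03%). NRF1 and GABPA are textbook activators of respiratory chain genes. A match is a description of the letters and not a measured binding site. The stretches below are shown because they belong to genes with high levels in WT or with large differences described later. The first 4 hold the relaxed NRF1 motif and the other 3 the ETS motif on either strand, in capitals.
Ndufaf4: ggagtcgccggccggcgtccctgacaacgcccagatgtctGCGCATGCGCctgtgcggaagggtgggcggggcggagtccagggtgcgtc
Ndufb4: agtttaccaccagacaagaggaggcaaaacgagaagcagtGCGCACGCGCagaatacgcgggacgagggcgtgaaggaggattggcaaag
Atp5h: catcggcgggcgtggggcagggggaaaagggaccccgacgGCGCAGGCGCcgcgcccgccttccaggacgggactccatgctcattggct
Cox6a1: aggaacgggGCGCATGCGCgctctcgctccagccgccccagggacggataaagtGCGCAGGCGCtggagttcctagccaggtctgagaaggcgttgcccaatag
Uqcr11: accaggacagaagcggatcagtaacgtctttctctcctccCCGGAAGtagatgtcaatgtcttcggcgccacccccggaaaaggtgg
Sdhd: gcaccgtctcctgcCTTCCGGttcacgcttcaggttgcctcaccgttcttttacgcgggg
Atp5e: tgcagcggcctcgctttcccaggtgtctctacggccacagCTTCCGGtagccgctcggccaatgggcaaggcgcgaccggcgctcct

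All are written 5′ to 3′ along the gene. Ndufaf4 lies at chr4:24897930-24898019 on the plus strand. The others lie on the minus strand, Ndufb4 at chr16:37654510-37654599, Atp5h at chr11:115420011-115420100, Cox6a1 at chr5:115349026-115349129, Uqcr11 at chr10:80406841-80406927, Sdhd at chr9:50603850-50603909 and Atp5e at chr2:174464157-174464243. Each stretch lies upstream of the annotated start of its gene. The NRF1 motif begins 113 bases before the start in Ndufaf4, 191 in Ndufb4 and 141 in Atp5h, and Cox6a1 holds it at 162 and at 117. The ETS motif begins 66 bases before the start in Uqcr11, 46 in Sdhd and 102 in Atp5e.

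The share of all counts that fell on the 95 genes differed between groups most in batch 1. It was 1.92%, 2.03% and 1.82% in LCD KO 1 to 3, against 1.41%, 1.43% and 1.49% in WT 1 to 3. The batch 1 groups did not overlap. In batch 2 it was 1.64% in LCD KO 4 and in LCD KO 5, and 2.09%, 1.69% and 1.78% in HD mutant 1 to 3, against 1.75% in WT 4. In batch 3 it was 1.62% and 1.53% in LCD KO 6 and 7, against 1.63% and 1.43% in WT 5 and 6, and the groups overlapped. The other batch 3 libraries lay on both sides of WT, with 1.79% and 1.3% in Dnmt3a KO, 1.36% and 1.75% in DKO and 1.33% and 1.36% in labelled Tet3 KO. The highest shares of all, 2.32% and 2.56%, were those of HD mutant 4 and 5, which have no stated batch and had the lowest total counts of the 24 libraries, 2242310 and 1838824.

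**Figure D2:**
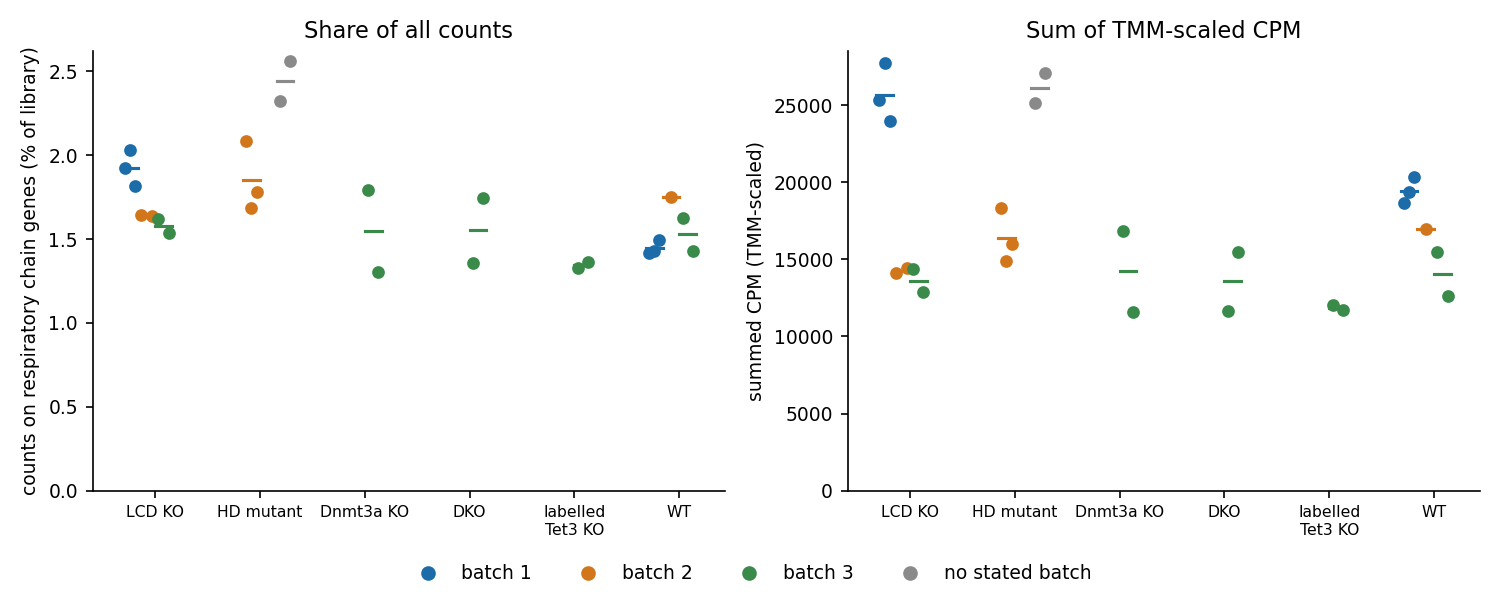
Share of each library's counts that fell on the 95 respiratory chain genes, in percent, 1 point per library, by group and batch. LCD KO 1 to 3 (1.82% to 2.03%) stand above WT 1 to 3 (1.41% to 1.49%) in batch 1, whereas LCD KO and WT lie close together in batches 2 and 3.

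The plot of shares by library shows that separation in batch 1, LCD KO below the only WT library in batch 2 and the overlap in batch 3. On the TMM scale the sum over complex I was 10610, 11720 and 9864 CPM in LCD KO 1 to 3, against 7059, 7760 and 8179 CPM in WT 1 to 3. Within batch 1 the sum over the 14 oocyte markers was 31200 to 35700 CPM in LCD KO, against 45900 to 52900 CPM in WT, so that it moved the other way. In batch 2 the oocyte marker sum was 32800 and 37100 CPM in LCD KO, against 48900 CPM in WT, and in batch 3 it was 17800 and 18600 CPM in LCD KO, against 21100 CPM in both WT libraries. The part of these markers, and of the high level of the granulosa marker Inha in LCD KO 2, in the respiratory chain values was not tested.

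Deletion of the LCD was tested against WT with the batch as a term, over the 22 libraries with a stated batch (edgeR's quasi-likelihood test with Benjamini-Hochberg adjustment over all 11794 genes, called at an adjusted p below 0.05). Of the 93 respiratory chain genes that passed the filter on low counts, 5 rose in LCD KO, 2 fell and 86 did not pass the test. Of the respiratory chain genes 7.53% were called, against 18.3% of all genes tested, of which 8.89% rose and 9.44% fell. The median log2 fold change was 0.13 over the 93 genes and -0.02 over all genes, and 65 of the 93 were positive. With library totals in place of TMM factors 10 genes rose and 0 fell, at a median of 0.20. The median and the share called of all genes under that scaling are not given here, so no direction of the set is read from it. By symbol, complex I had 3 rises and 1 fall among 45 genes, with Ndufa4l2, a paralog of Ndufa4, among the rises. Complex II had 1 rise among 8, complex IV 1 rise and 1 fall among 15, and complexes III (8 genes) and V (17 genes) had 0 calls.

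Ndufv3, a small subunit of the NADH-oxidizing module of complex I, was the most clearly changed. Its level was 73.6 to 102 CPM in LCD KO (median 87.8, n = 7), against 35.5 to 56.7 CPM in WT (median 39.3, n = 6). No LCD KO library overlapped a WT library. The log2 fold change was 1.0 ± 0.14 (SE; adjusted p = 1.94e-05, edgeR), and within batches it was 1.24 in batch 1, 0.63 in batch 2 (adjusted p = 0.361) and 0.97 in batch 3 (adjusted p = 0.127). Fitted on batches 2 and 3 without batch 1 it was 0.82 (adjusted p = 0.0271).

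The other rises were in assembly factors, an oxygen-regulated paralog and a complex IV subunit. Ndufaf3, which takes part in building complex I, stood at 56.3 to 75.9 CPM in LCD KO (median 67.9), against 37.7 to 57.2 CPM in WT (median 49.8), and rose by 0.50 ± 0.13 on the log2 scale (adjusted p = 0.00927, edgeR). Sdhaf3, which helps to insert an iron-sulfur subunit into complex II, stood at 25.3 to 44.3 CPM in LCD KO (median 31.2), against 14.8 to 30.2 CPM in WT (median 19.3), with a rise of 0.62 ± 0.17 (adjusted p = 0.0104). Both groups overlapped at their edges. Within batches the log2 difference of Ndufaf3 was 0.84 in batch 1, 0.09 in batch 2 and 0.38 in batch 3, and that of Sdhaf3 was 1.09, 0.15 and 0.42 in the same order.

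Cox5b, a nuclear-encoded subunit of complex IV, stood at 187 to 325 CPM in LCD KO (median 215), against 146 to 185 CPM in WT (median 171), without overlap. It rose by 0.51 ± 0.14 (adjusted p = 0.0113, edgeR), by batch 0.82, 0.19 and 0.31. Ndufa4l2, which is known as a target of hypoxia signalling, was low throughout, at 4.86 to 12.6 CPM in LCD KO (median 9.47), against 1.87 to 10.1 CPM in WT (median 4.96). Its groups overlapped, and the fitted difference was 0.99 ± 0.29 (adjusted p = 0.0185), by batch 0.56, 1.22 and 1.58. That call was lost without WT 4 (adjusted p = 0.0501) or WT 6 (adjusted p = 0.0635).

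The falls were Cox6a2 and Ndufs6. Cox6a2 stood at 10.3 to 18.6 CPM in LCD KO (median 11.2), against 10.4 to 31.4 CPM in WT (median 17.6), and its log2 fold change was -0.60 ± 0.20 (adjusted p = 0.0323, edgeR), by batch -0.24, -0.76 and -0.86. Ndufs6, a zinc-binding subunit of complex I, stood at 35.3 to 76.7 CPM in LCD KO (median 63.5), against 50.9 to 87.1 CPM in WT (median 82.0), with a change of -0.40 ± 0.14 (adjusted p = 0.0471), by batch -0.18, -0.49 and -0.60. The groups of both genes overlapped. The call of Cox6a2 was lost without any one of LCD KO 5, 6 or 7 or WT 1, 4, 5 or 6 (adjusted p = 0.0508 to 0.108), and that of Ndufs6 without any one of LCD KO 1, 3, 4, 5 or 7 or WT 2, 3, 4 or 5 (adjusted p = 0.058 to 0.122). Exons of Cox6a2 overlap Itgad on the opposite strand over 10.3% of their length, and as the strand setting of the counting is not given, reads of the partners cannot be told apart.

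**Figure D3:**
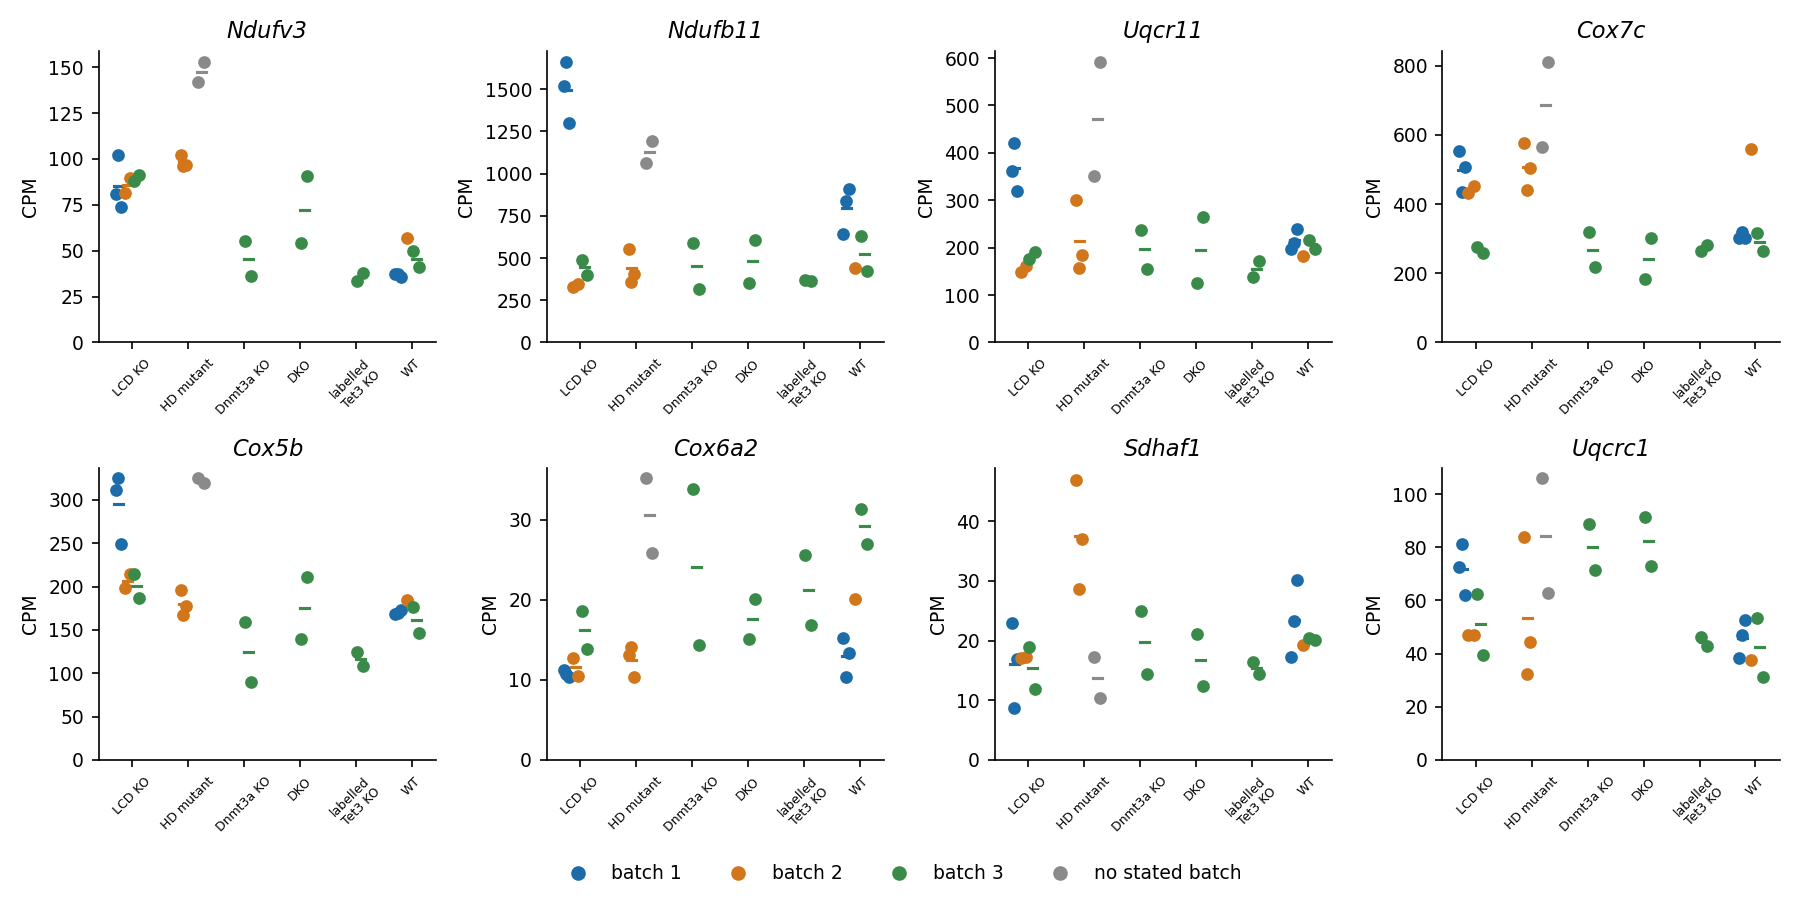
Levels of 8 respiratory chain genes in CPM, 1 point per library, by group and batch. Ndufv3 is higher in every LCD KO library (73.6 to 102 CPM) than in every WT library (35.5 to 56.7 CPM), whereas Ndufb11, Uqcr11 and Cox7c are higher in LCD KO than in WT in batch 1 and not in batch 3.

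Without a batch term, 2 of the 93 genes were called in LCD KO against WT, with 4.61% of all genes called. They were Ndufv3 (1.01, adjusted p = 0.000635, edgeR) and Ndufaf3 (0.50, adjusted p = 0.0448). Sdhaf3 (0.62, adjusted p = 0.063), Cox5b (0.52, adjusted p = 0.0885), Cox6a2 (-0.64, adjusted p = 0.174), Ndufa4l2 (0.83, adjusted p = 0.207) and Ndufs6 (-0.36, adjusted p = 0.265) kept a like size with a larger adjusted p. The plot of 8 gene levels shows the batch differences that this fit leaves in the spread.

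Within batch 1 alone, with 3 LCD KO and 3 WT libraries, 45 of 90 genes rose and 2 fell. Of all 9420 genes tested there, 30.3% were called, 15.8% as higher and 14.4% as lower, and the median log2 fold change was 0.37 over the respiratory chain genes and -0.01 over all genes. Complex I held 27 rises and 0 falls among 44 genes, complex II 3 rises among 8, complex III 5 rises among 8, complex IV 3 rises among 13 and complex V 7 rises and 2 falls among 17. Scaling by library totals gave 45 rises and 2 falls as well. Leaving out each of the 6 libraries in turn left 29 to 44 calls, and the lowest count, 28 rises and 1 fall, came without WT 2. Without LCD KO 2, the library with the high level of Inha, there were 37 rises and 1 fall.

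The 10 largest rises in batch 1 came from all 5 complexes. Ndufv3 rose by 1.24 ± 0.16 (adjusted p = 6.1e-05, edgeR), and Atp5g1, a c subunit gene, by 1.09 ± 0.17 (adjusted p = 0.000512), with 639, 958 and 592 CPM in LCD KO 1 to 3, against 308, 337 and 401 CPM in WT 1 to 3. Ndufb11 stood at 1520, 1660 and 1300 CPM in LCD KO, against 641, 835 and 907 CPM in WT, a rise of 0.93 ± 0.14 (adjusted p = 0.000207). Uqcr10, a small subunit of complex III, stood at 566, 595 and 476 CPM in LCD KO, against 258, 288 and 336 CPM in WT, a rise of 0.92 ± 0.13 (adjusted p = 0.000144). None of these last 3 genes overlapped between the groups, but they were chosen for the size of their rise, so that this adds no support. Exons of Ndufb11 overlap Rbm10 on the opposite strand over 12.9% of their length.

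Sdhaf3 (1.09), Ndufaf3 (0.84), Cox5b (0.82), Uqcr11 (0.80) and the complex I genes Ndufa12 and Ndufaf8 (0.79 each) completed the 10 largest rises of batch 1 by log2 fold change. The levels of Sdhd were 571, 741 and 611 CPM in LCD KO, against 419, 455 and 492 CPM in WT, a rise of 0.52 ± 0.13 (adjusted p = 0.00597, edgeR). The falls were the 2 large subunits of the catalytic head of complex V. Atp5a1, the alpha subunit, stood at 138, 134 and 154 CPM in LCD KO, against 218, 200 and 180 CPM in WT, with a log2 fold change of -0.46 ± 0.13 (adjusted p = 0.0129). Atp5b, the beta subunit, stood at 252, 265 and 275 CPM in LCD KO, against 356, 327 and 318 CPM in WT, with -0.31 ± 0.11 (adjusted p = 0.0489). Both genes were lower in each LCD KO library than in each WT library of the batch.

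In batches 2 and 3 the same comparison gave 0 calls. In batch 2, with 2 LCD KO libraries and 1 WT library, 0 of 93 genes were called by edgeR, 7 had an unadjusted p below 0.05 and the median was -0.15, against 0.0946% of all genes called. In batch 3, with 2 LCD KO and 2 WT libraries, 0 of 92 were called, 3 had an unadjusted p below 0.05 and the median was -0.03, against 0.789% of all genes. Batches 2 and 3 fitted together gave 1 call, Ndufv3, against 3.07% of all genes. The shares of all genes given for these batches are shares called, and are not a background for the counts at an unadjusted p. These batches hold fewer libraries than batch 1, and DESeq2 was not run within single batches.

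**Figure D4:**
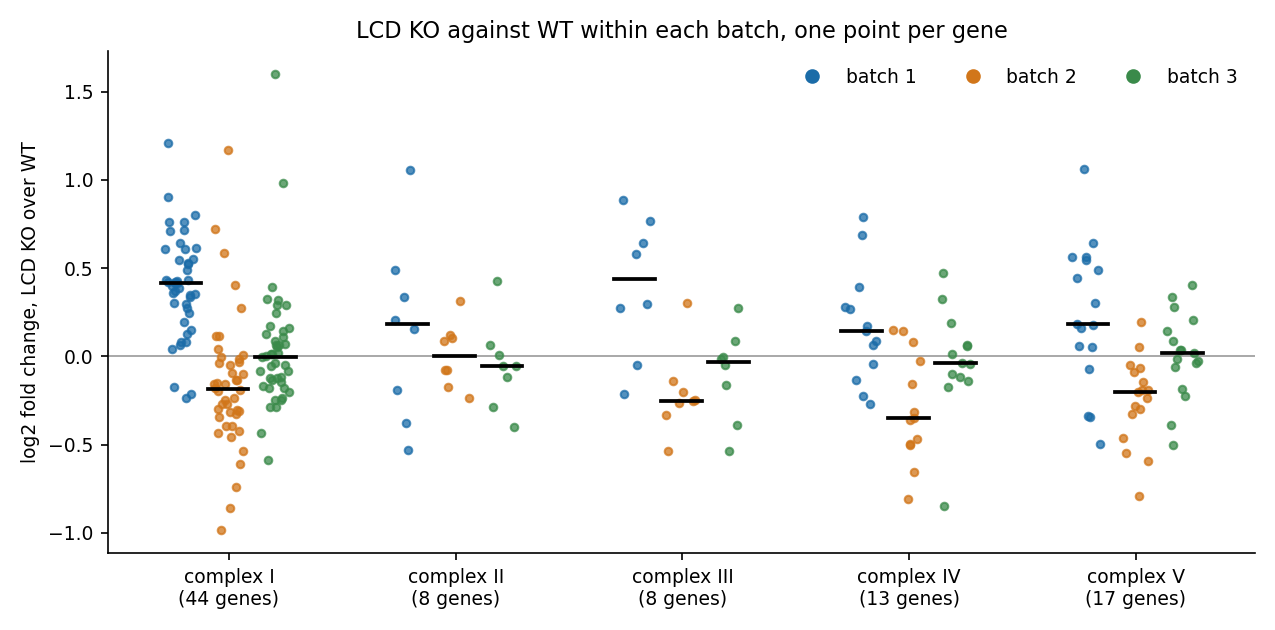
Log2 fold change of LCD KO over WT for 90 respiratory chain genes in batches 1, 2 and 3, 1 point per gene, by complex, with a black line at the median. In batch 1, 74 of 90 genes are above 0, whereas in batches 2 and 3 the medians over the 90 genes lie at -0.19 and -0.01.

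Whether the difference of LCD KO from WT was the same in the 3 batches was tested with a term for group by batch, with 7 residual degrees of freedom. It was called for 3 of 90 respiratory chain genes and for 0.836% of 10045 genes. Of the 90, 38 had an unadjusted p below 0.05. The share of all genes at that unadjusted p is not given here, so that this count cannot be read as particular to the set. The fitted log2 fold changes of Ndufb11 were 0.90 in batch 1, -0.39 in batch 2 and -0.24 in batch 3 (adjusted p of the term = 0.0316, edgeR). Those of Uqcr11, a small subunit of complex III, were 0.77, -0.25 and -0.16 (adjusted p = 0.0337), and those of Cox7c, a small subunit of complex IV, 0.69, -0.35 and -0.12 (adjusted p = 0.0337). The plot of the LCD KO effect by batch shows the fold changes of each complex, and no test compared the complexes. The number of calls rested on single libraries. There were 0 calls without LCD KO 1, 4 or 5 or without WT 1 or 2, 1 without LCD KO 2, 6 without LCD KO 6 and 12 without WT 6.

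The levels behind these 3 terms are given by library. Uqcr11 stood at 362, 421 and 320 CPM in LCD KO 1 to 3, against 198, 209 and 239 CPM in WT 1 to 3, and at 148, 161, 177 and 191 CPM in LCD KO 4 to 7, against 182, 217 and 197 CPM in WT 4 to 6. Cox7c stood at 553, 434 and 506 CPM in LCD KO 1 to 3, against 303, 320 and 301 CPM in WT 1 to 3, and at 431, 452, 275 and 260 CPM in LCD KO 4 to 7, against 558, 317 and 265 CPM in WT 4 to 6. Outside batch 1 the LCD KO libraries lay among or below the WT libraries for both genes. Ndufb11 stood at 328, 348, 489 and 399 CPM in LCD KO 4 to 7, against 439, 631 and 422 CPM in WT 4 to 6.

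The genes that rose in batch 1 were also read by promoter motif, as a description with no test. Of the genes with a relaxed NRF1 motif, 13 of 22 tested (59.1%) were among the rises, and of those without it 28 of 51 (54.9%). With the ETS motif it was 12 of 20 (60%), and without it 29 of 53 (54.7%). Among the genes whose sequence is printed above, Atp5h (0.67), Ndufaf4 (0.59), Uqcr11 (0.80) and Sdhd (0.52) rose in batch 1, whereas Ndufb4 (0.37, adjusted p = 0.0505, edgeR), Cox6a1 (0.31, adjusted p = 0.0588) and Atp5e (0.21, adjusted p = 0.192) did not pass the test. The promoter of Ndufv3 held none of the 5 motifs searched.

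Genes that surround the respiratory chain were read in the same fits. In LCD KO against WT over all batches, where 8.89% of all genes rose and 9.44% fell, 5 rose and 1 fell of 35 assembly factors outside the set (Atpaf2, of complex V, 1.04 ± 0.20, and Tmem70, also of complex V, -0.55 ± 0.10), and 5 rose and 3 fell of 24 electron carriers and inputs (the ADP/ATP carrier Slc25a5 1.03 ± 0.25, Coq2 of ubiquinone synthesis -1.38 ± 0.30). Of 15 regulators of mitochondrial biogenesis and mitochondrial DNA, 0 rose and 3 fell: Pprc1, a relative of the coactivator PGC-1, the mitochondrial RNA polymerase Polrmt and the helicase Twnk. Of 17 genes of the citric acid cycle and pyruvate dehydrogenase 1 rose, Suclg1, and of 77 mitochondrial ribosomal protein genes 6 rose and 3 fell. Within batch 1 the counts were 11 rises and 2 falls of 30 assembly factors, 9 and 3 of 23 carriers, 0 and 3 of 12 regulators, 1 and 1 of 17 citric acid cycle genes and 30 and 1 of 76 mitochondrial ribosomal protein genes, against 30.3% of all genes called. Within batch 2 and within batch 3 each of these lists had 0 calls by edgeR, with 0 to 6 genes a list at an unadjusted p below 0.05.

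HD mutant was compared with WT over HD mutant 1 to 3, all of batch 2, linked to the WT libraries of other batches through the batch term. Ndufv3 rose again, and the other 92 genes did not pass the test, against 7.83% of all genes called, 4.08% as higher. Ndufv3 stood at 102, 95.9 and 96.9 CPM in HD mutant 1 to 3 and at 142 and 153 CPM in HD mutant 4 and 5, against 35.5 to 56.7 CPM in WT (median 39.3), without overlap. The log2 fold change was 1.05 ± 0.22 (adjusted p = 0.00316, edgeR). It was 1.19 without a batch term (adjusted p = 0.00111) and 0.82 within batch 2, where 1 WT library was present (adjusted p = 0.192). Over the 93 genes the median was 0.20 and 14 had an unadjusted p below 0.05, against 2923 of all 11794 genes. Next to Ndufv3 were Sdhaf3 (0.75, adjusted p = 0.0633, edgeR) and Atp5h (0.61, adjusted p = 0.077). HD mutant and LCD KO share the WT libraries, so the fold change of Ndufv3 in each is not independent of the other.

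HD mutant was also compared with LCD KO, and 1 of 93 genes was called, as higher, against 2.08% of all genes called and 1.17% called as higher. Sdhaf1, which protects the iron-sulfur subunit of complex II during assembly, stood at 47.0, 28.6 and 37.0 CPM in HD mutant 1 to 3 and at 17.3 and 10.3 CPM in HD mutant 4 and 5, against 8.61 to 22.9 CPM in LCD KO (median 17.0, n = 7). HD mutant 1 to 3 lay above every LCD KO library, and HD mutant 4 and 5 lay within the range of LCD KO. The log2 fold change was 1.20 ± 0.28 (adjusted p = 0.0182, edgeR) and fell to 0.81 with an adjusted p of 0.241 when the libraries without a stated batch were included. The call was also lost within batch 2 (1.12, adjusted p = 0.0961) and without LCD KO 4 (adjusted p = 0.0891), LCD KO 5 (adjusted p = 0.0873) or HD mutant 1 (adjusted p = 0.0927). Exons of Sdhaf1 overlap E130208F15Rik on the opposite strand over 69.6% of their length, and reads of this pair cannot be told apart.

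For the surrounding lists, HD mutant against WT (7.83% of all genes called) gave 2 rises and 2 falls of 35 assembly factors, 3 rises of 24 carriers, 0 calls of 15 regulators (4 with an unadjusted p below 0.05), 1 rise of 17 citric acid cycle genes and 3 rises of 77 mitochondrial ribosomal protein genes. HD mutant against LCD KO (2.08% of all genes called) gave 1 rise of 35 assembly factors, the complex III factor Lyrm7 (2.32 ± 0.48), 1 rise of 77 mitochondrial ribosomal protein genes and 0 calls by edgeR in the other 3 lists (1 or 2 genes a list at an unadjusted p below 0.05).

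Dnmt3a KO and DKO, which carried Cre and were of batch 3, were compared with WT, which did not carry it. In Dnmt3a KO against WT 0 of 93 genes were called by edgeR and 0 by DESeq2, against 0.755% of all genes called by edgeR. At an unadjusted p below 0.05 there were 10 of the 93, against 1531 of all 11794 genes. In DKO against WT 1 gene was called, Uqcrc1, a core protein of complex III, which rose, against 3.79% of all genes called and 2.27% called as higher. Uqcrc1 stood at 91.4 and 72.9 CPM in DKO and at 88.6 and 71.6 CPM in Dnmt3a KO, against 31.3 to 53.4 CPM in WT (median 42.6). Both pairs of libraries lay above every WT library. In the libraries labelled Tet3 KO, where Dnmt3a was also low (105 and 143 CPM), Uqcrc1 stood at 46.2 and 42.8 CPM, within the WT range. It spanned 39.6 to 81.2 CPM in LCD KO and 32.3 to 106 CPM in HD mutant, where the high levels came from libraries outside batch 3. Within batch 3 it stood at 62.5 and 39.6 CPM in LCD KO 6 and 7 and at 53.4 and 31.3 CPM in WT 5 and 6. These lay below both Dnmt3a KO and both DKO libraries. The log2 fold change was 1.05 ± 0.29 in DKO (adjusted p = 0.0348, edgeR) and 1.01 ± 0.29 in Dnmt3a KO (adjusted p = 0.0965).

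The call of Uqcrc1 in DKO was lost within batch 3 (0.96, adjusted p = 0.106), without a batch term (adjusted p = 0.0931), and without DKO 1 (adjusted p = 0.263), DKO 2 (adjusted p = 0.0851), WT 2 (adjusted p = 0.0509) or WT 6 (adjusted p = 0.135). Without a batch term the called gene in DKO against WT was Cox8c instead (2.15, adjusted p = 0.026, edgeR), with 2.58% of all genes called. Cox8c is a low gene, with 1.76 and 9.69 CPM (7 and 29 counts) in DKO 1 and 2, against 0.781 to 1.61 CPM (2 to 6 counts) in WT. The difference rested on DKO 2, without which it was 0.50 (adjusted p = 0.798, edgeR).

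DKO against Dnmt3a KO gave 0 calls of 93 by edgeR and 0 by DESeq2, against 1.99% of all genes called by edgeR. At an unadjusted p below 0.05 there were 8 of the 93, against 1809 of all 11794 genes. The smallest adjusted p was that of Ndufa4l2 (1.87 ± 0.58, adjusted p = 0.0973, edgeR). Ndufa4l2 had 5.29 and 10 CPM in DKO, against 2.21 and 1.93 CPM in Dnmt3a KO. DKO against LCD KO gave 0 calls by edgeR and 0 by DESeq2, against 0.314% of all genes called by edgeR. At an unadjusted p below 0.05 there were 2 of the 93, against 910 of all 11794 genes. The difference of DKO from Dnmt3a KO was also tested against that of LCD KO from WT. Of these groups WT alone carried no Cre, so that dependence on Dnmt3a and an effect of Cre cannot be told apart. The term was called for 0 of 93 genes by edgeR, against 0.0678% of all genes. At an unadjusted p below 0.05 there were 4 of the 93, against 779 of all 11794 genes. Ndufv3 had 54.1 and 90.6 CPM in DKO and 55.5 and 36.0 CPM in Dnmt3a KO, so that the ranges of the pairs met, and its difference between DKO and Dnmt3a KO was 0.67 ± 0.25 (adjusted p = 0.179).

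The libraries labelled Tet3 KO gave 0 calls of 93 against WT by edgeR and 0 by DESeq2, against 1.37% of all genes called by edgeR. At an unadjusted p below 0.05 there were 3 of the 93, against 1092 of all 11794 genes. The median log2 fold change was -0.17 and 75 of the 93 were negative, which describes 2 libraries of batch 3 against a WT group adjusted for batch. Cox6a1 was nearest to the threshold, at 163 and 151 CPM in labelled Tet3 KO, against 214 to 342 CPM in WT (-0.55 ± 0.21, adjusted p = 0.286). Ndufv3 stood at 33.7 and 37.9 CPM there, against 35.5 to 56.7 CPM in WT.

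In these batch 3 groups the surrounding lists held few calls. Dnmt3a KO against WT had 0 calls in all 5 lists by edgeR, with 0 to 8 genes a list at an unadjusted p below 0.05. DKO against WT (3.79% of all genes called) had 2 falls of 24 carriers (Gpd2 and Coq5), 1 fall of 15 regulators (Polrmt) and 2 rises and 1 fall of 77 mitochondrial ribosomal protein genes, and DKO against Dnmt3a KO (1.99% called) had 1 rise and 1 fall of 24 carriers (Slc25a4 and Gpd2) and 1 rise of 77 mitochondrial ribosomal protein genes. Labelled Tet3 KO against WT (1.37% called) had 1 fall, Mrpl41, and DKO against LCD KO had 0 calls in all 5 lists by edgeR, with 0 to 3 genes a list at an unadjusted p below 0.05.

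Between batches, at a fixed group, 35 to 52 of the 93 genes were called, against at most 7 between groups over all batches. With TMM scaling, 7 rose and 44 fell of 93 in batch 2 against batch 1 (median -0.40, and 0.08 over all genes, of which 48.6% were called, 26.8% as higher and 21.8% as lower). In batch 3 against batch 1, 2 rose and 50 fell (median -0.53, and 0.06 over all genes, 31.6% called, 15.2% as higher and 16.4% as lower), and in batch 3 against batch 2, 13 rose and 22 fell (median -0.06, 47.2% called, 22% as higher and 25.2% as lower). These directions depended on the scaling. With library totals in place of TMM factors, which moved the median of all genes by 0.64 for batch 2 and by 0.65 for batch 3 against batch 1, 31 rose and 16 fell in batch 2 against batch 1 (58.4% of all genes called, 50.4% as higher and 7.94% as lower), 27 rose and 12 fell in batch 3 against batch 1 (59% of all genes, 54.9% as higher and 4.1% as lower), and 17 rose and 20 fell in batch 3 against batch 2 (47% of all genes, 23.1% as higher and 23.9% as lower).

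**Figure D5:**
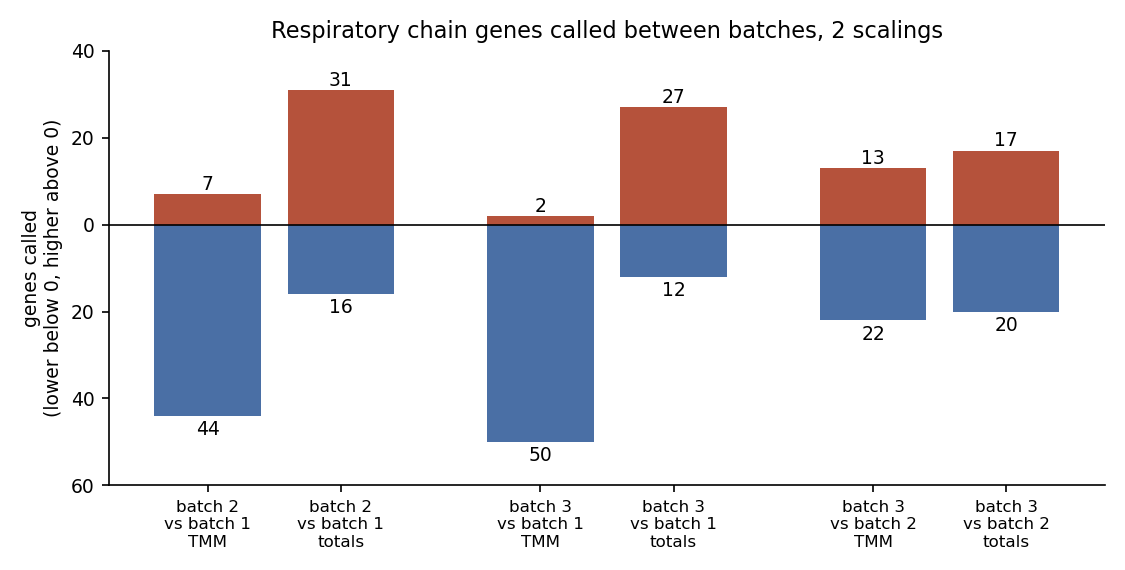
Number of respiratory chain genes called higher (above 0) or lower (below 0) between batches at a fixed group, with TMM factors and with library totals. The split is 7 higher and 44 lower in batch 2 against batch 1 with TMM factors, and 31 higher and 16 lower with library totals.

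The plot of calls between batches shows this flip. By complex and with TMM scaling, complex I had 0 rises and 24 falls in batch 2 against batch 1 and 1 rise and 24 falls in batch 3 against batch 1. Complex IV had 3 rises and 2 falls of 15 in batch 2 against batch 1, and 1 rise and 9 falls in batch 3 against batch 1. Complex V had 4 rises and 10 falls in batch 2 against batch 1 and 0 rises and 12 falls in batch 3 against batch 1.

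On the TMM scale the largest falls in batch 2 against batch 1 were Sdhd (-2.38 ± 0.29), Ndufb11 (-1.61), Ndufa8 (-1.34), Ndufb4 (-1.28) and Uqcr10 (-1.28), and the largest rises Atp5sl (1.05), Cox6b2 (0.90), Atp5a1 (0.90), Atp5d (0.82) and Atp5g2 (0.78). Sdhd stood at 135 and 94.5 CPM in LCD KO 4 and 5 and at 91.4 CPM in WT 4, against 571, 741 and 611 CPM in LCD KO 1 to 3 and 419, 455 and 492 CPM in WT 1 to 3. The batch 2 libraries of both groups lay below every library of batch 1.

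In batch 3 against batch 1 the largest falls on the TMM scale were Atp5e (-1.49 ± 0.19), Ndufb4 (-1.35), Cox4i1 (-1.32), Ndufv1 (-1.27) and Ndufb11 (-1.18), and the rises were Cox6a2 (0.90, adjusted p = 0.00306, edgeR) and Ndufaf7 (0.50, adjusted p = 0.00888). Sdhaf4 (0.39), Sdhaf3 (0.37) and Cox8c (0.37) came next and did not pass the test. Cox4i1, the main form of a regulatory subunit of complex IV, stood at 411 and 323 CPM in LCD KO 6 and 7 and 428 and 329 CPM in WT 5 and 6, against 977, 921 and 958 CPM in LCD KO 1 to 3 and 982, 883 and 853 CPM in WT 1 to 3. Its batch 3 levels lay below all batch 1 levels.

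In batch 3 against batch 2 the largest falls were Cox4i2 (-1.44, adjusted p = 0.0446, edgeR), Cox4i1 (-1.28), Atp5l (-1.26), Atp5d (-1.26) and Cox8a (-1.20), and the largest rises Sdhd (1.48), Ndufa12 (1.10), Sdhaf4 (0.96) and Ndufaf7 (0.89), whereas Ndufa4l2 (0.88) did not pass the test. Cox4i2 was at most 5.33 CPM in any library. In batch 2 against batch 1, with TMM scaling, the share called was 55.8% of 77 mitochondrial ribosomal protein genes, 58.3% of 24 carriers, 37.1% of 35 assembly factors, 40% of 15 regulators and 58.8% of 17 citric acid cycle genes, against 48.6% of all genes. No direction is given for these lists, since they were not recomputed with library totals.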

How the data were processed

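RNA from pools of 10 oocytes was sequenced. The authors deposited raw read counts per gene symbol. Per the submitters' processing notes, Trim Galore 0.5.0, HISAT2 2.1.0, featureCounts 1.6.4 and mm9 were used; neither the gene annotation nor the strand setting is stated. Of 24542 features, 92 spike-in sequences, which held 1 count over 24 distinct libraries, were left out. The duplicated columns were counted once, whereas within groups the 49 other pairs gave chi-square values of 3.36 or more per degree of freedom. The labels call the pools biological replicates and say no more, so p-values measure the spread between pools.

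Counts were tested with edgeR 4.0.16 (quasi-likelihood F test, robust, TMM factors, filterByExpr by group) in R 4.3.3, with terms for group and batch, over 22 libraries with 14 residual degrees of freedom. Genes were called at a Benjamini-Hochberg adjusted p below 0.05 over all genes tested, and adjusted p-values in the text are edgeR's. DESeq2 1.42.0, another scaling, no filter, no batch term, single batches and left-out libraries were alternatives. Fits on pairs of batches, and the left-out libraries, the scaling and the filter within batch 1, and left-out DKO libraries with no batch term, were added after seeing the data. The script was tested on simulated data with known changes in LCD KO against WT. It called 28.8% of changes of 1.5-fold, 65.6% of 2-fold and 95.4% of 4-fold, and 4.65% of its calls were false. Small changes could therefore be missed, and the other comparisons were not simulated.

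CPM were computed from the counts with TMM factors. For CPM per kb the length was the union of a gene's exons in GENCODE vM21 (GRCm38), whereas reads were counted on mm9. By rule, 51 genes were named: those called between groups, the 3 highest and 2 lowest of each complex in WT, isoform families and the 5 largest rises and falls between batches. Genes named for the batch 1 fit and for motifs were added after their values were seen. The members and the 5 surrounding lists were chosen with earlier results of these data known.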

Additional observations from a re-analysis of the deposited data

Results flagged for a closer look

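Cox6a2 stood at 18.6 CPM in LCD KO 6, against 10.3 to 13.8 CPM in the other LCD KO libraries, and the gap to the nearest was 0.577 of the range of the group. This was 1 of 54 checks of a group for a sample far from the others. Chance sets apart about 1 in 20 groups of like samples, whereas the groups here were pooled over batches. LCD KO 6 is of batch 3, where LCD KO 7 stood at 13.8 CPM. WT 5 and 6 of that batch stood at 31.4 and 27.0 CPM, against 10.4 to 15.2 CPM in WT 1 to 3.

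The difference of LCD KO from WT differed between batches by the test of the group by batch term (edgeR) for 3 genes. They were Ndufb11 (adjusted p = 0.0316; log2 fold changes of 0.90, -0.39 and -0.24 in batches 1, 2 and 3), Uqcr11 (adjusted p = 0.0337; 0.77, -0.25 and -0.16) and Cox7c (adjusted p = 0.0337; 0.69, -0.35 and -0.12). The cause was not tested.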

How the results depend on the processing

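Counts of called respiratory chain genes moved with the batch and the libraries. They are given here without the share of all genes called in each setting, and show only how far the counts moved. LCD KO against WT gave 7 calls, and 2 without a batch term, 1 with all 24 libraries and no batch term, 47 in batch 1, 0 in batch 2, 0 in batch 3, 1 in batches 2 and 3, 11 in batches 1 and 3, and 5 to 10 without single libraries. Library totals and no filter gave 10 each, DESeq2 8 and relative log expression factors 7. Batch 1 alone gave 29 to 44 calls without single libraries, 47 with library totals and 45 with no filter. HD mutant against WT gave 1 call, and 2 without a batch term, 2 with all 24 libraries, 3 with library totals, 4 with no filter, 0 in batch 2 and 1 to 3 without single libraries (3 without WT 4 or WT 5). HD mutant against LCD KO gave 1, and 0 with all 24 libraries, 0 in batch 2 and 0 or 1 without single libraries (0 without LCD KO 4 or 5), where the call without HD mutant 1 was of a gene that fell. Dnmt3a KO against WT gave 0, 2 with no filter and 0 to 2 without single libraries (2 without WT 5). DKO against WT gave 1, 2 with library totals, 0 in batch 3 and 0 to 2 without single libraries (2 without DKO 1, 0 without DKO 2, WT 2 or WT 6; with no batch term, 1 without DKO 1 and 0 without DKO 2). DKO against Dnmt3a KO gave 0, 2 with no filter and 0 or 1 without single libraries (1 without DKO 1). Without single libraries, batch 2 against batch 1 gave 36 to 52 calls, batch 3 against batch 1 43 to 53 and batch 3 against batch 2 23 (without WT 4) to 38, and the group by batch term 0 to 12, and 4 with relative log expression factors. Without WT 4 that term could not be fitted.

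With the replicate number as a block, calls numbered 11 in LCD KO against WT (16.6% of all genes called) and 0 in DKO against Dnmt3a KO (1.29%), both with batch. With no batch term the block gave 22 in HD mutant against WT (29.5%), 26 in HD mutant against LCD KO (25.8%), 10 in Dnmt3a KO against WT (12.2%), 16 in DKO against WT (16.6%), 22 in DKO against LCD KO (13.5%) and 25 in labelled Tet3 KO against WT (9.86%). In the fits with no batch term the same-numbered libraries of the compared groups lie in different batches. Group and batch cannot be told apart there, and those counts are not read as group differences. The samples share only a number. Deviations from group means of same-numbered LCD KO and WT libraries correlated at 0.255 to 0.761 for the 5 pairs within a batch and at -0.398 for number 5, whose libraries lie in batches 2 and 3. Taken from the group means of a batch, a check added after seeing the data, they were -0.02, -0.027 and -0.066 in batch 1. The numbers were therefore not taken to pair the samples. Batch 3 cannot decide this, since with 2 libraries in a group the deviations mirror each other and every pair has the same size. The value there was -0.367 for number 6 and 0.367 for LCD KO 6 with WT 5. In each fit the cause of a moved count was not tested.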
